A study of Homo sapiens with 2 samples.

Results

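Expression of the sarcospan and dystroglycan complex was followed in MDA-MB-231, a line from a human breast carcinoma with mesenchymal features. The genes followed were SSPN, SGCB, SGCD, SGCE, DAG1, DMD, UTRN, SNTB1, SNTB2 and DTNA. Every probe set whose only gene symbol is one of these 10 names was taken, which gave 41 of 49495 probe sets for 8 of 18244 genes; SGCD and DAG1 had no such probe set in the tables used and were not analysed here. Total RNA of a clone with stable UGT8 knockdown was hybridised to 1 Affymetrix array, and total RNA of the parental MDA-MB231 cells, the control, to 1 further array. Both cultures were grown in DMEM with 5.6 mmol/L glucose and harvested 48 h after passage. The knockdown cells were 1 clone and the control cells the parental line, so a clonal difference and the knockdown cannot be told apart. How the knockdown was made, and whether the control carried a vector, is not stated in the labels.

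The complex spans the plasma membrane and ties the extracellular matrix to the actin cytoskeleton. Dystroglycan binds laminin outside the cell through its glycans, dystrophin or its relative utrophin binds dystroglycan and actin inside, the sarcoglycans and sarcospan form a subcomplex beside dystroglycan in the membrane, and syntrophins and dystrobrevin sit on dystrophin as adapters. It is best known from muscle, where loss of its subunits causes muscular dystrophy, and utrophin-based forms occur in epithelial and other cells.

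Values were made with RMA and are in log2, and each difference is the knockdown array minus the control array. Each group holds 1 array, so there is no replicate check and no test, and all differences describe these arrays only; precision is limited by having 2 arrays. The members were proposed with these differences known, so their counts are a description. For each gene the probe set whose mean over both arrays was highest, its brightest, gave the value, and the gene was counted where that mean reached a floor of 6.64, the median over all non-control probe sets. Differences of at least 1.5-fold (0.58 in log2) were counted. In bulk RNA, fewer cells expressing a gene and less RNA per cell cannot be told apart.

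UGT8, the targeted gene, was lower in each of its 3 probe sets, and the brightest read 6.61 on the knockdown array against 8.95 on the control array. Of 10439 genes past the floor, 704 were lower and 518 higher by at least 1.5-fold, and the median gene differed by 0.03. That is 42.4% higher among the counted genes, against 28.7% (360 higher, 896 lower) after centring on the poly-A control RNAs and 1.28% (50 higher, 3868 lower) after centring on the hybridisation control RNAs. The hybridisation controls differed by a median of 0.51, brighter on the knockdown array, and centring on them takes the median of all genes to -0.48. The difference between 3' and 5' probe sets, a reading of RNA quality, was 0.90 on the knockdown array and 0.49 on the control array for ACTB, and 0.19 and 0.18 for GAPDH; its part in the results was not tested. Markers of the line were bright on both arrays (VIM at 13.9 on the knockdown array and 13.9 on the control array). Of 6 listed luminal markers, 4 lay past the floor. With the knockdown array first, ERBB2 read 8.73 and 8.56, GATA3 8.51 and 8.73, CDH1 7.66 and 8.01, and FOXA1 6.71 and 6.65. The hormone receptor genes lay below the floor, ESR1 at 6.30 on the knockdown array and 6.31 on the control array and PGR at 3.45 and 3.37. Of 16 skeletal muscle markers, 4 lay past the floor and none differed by 1.5-fold; their summed signal was 9.75 on the knockdown array and 9.81 on the control array. The muscle regulator MYOD1 read 3.95 on both arrays, below the mean of the 23 background probe sets (4.73).

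Among the 8 members past the floor, 3 were lower by at least 1.5-fold and none was higher, where 6.74% of all genes past the floor were lower and 4.96% higher. These were SSPN, SNTB1 and DTNA. The other 5, SGCB, SGCE, DMD, UTRN and SNTB2, lay between -0.17 and 0.25. The median over the 8 members was -0.12, and the rule was chosen on this same contrast, so nothing is read from their share. At 2-fold, SSPN alone was lower, where 1.54% of all genes past the floor were lower and 0.738% higher.

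**Figure D1:**
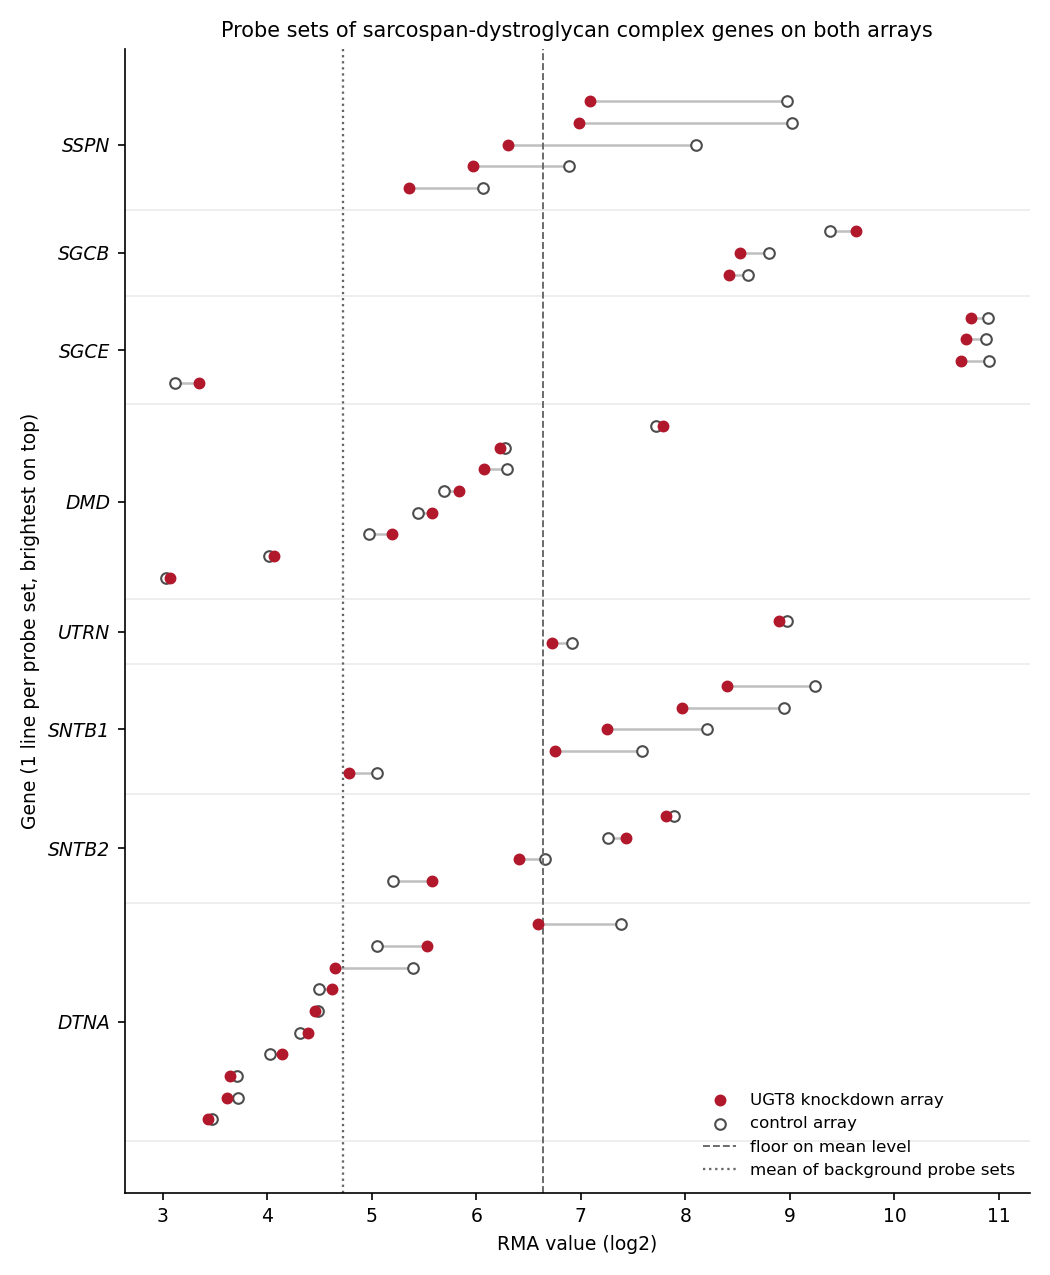
RMA values (log2) of all 41 probe sets of the 8 genes, 1 line per probe set, on the UGT8 knockdown array (filled) and the control array (open), with the floor on mean level and the mean of the background probe sets as vertical lines. The knockdown points of all 5 SSPN and all 5 SNTB1 probe sets lie left of the control points, and most DTNA probe sets lie near or below the background mean.

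The 2 promoter windows of SSPN are shown because SSPN differed most among the members, and because they show 2 unlike starts. No probe set was assigned to either start. Each is a RefSeq window of GRCh38.p14, plus strand, of 300 bases from 250 before to 50 after a start, and capitals mark E-boxes (CANNTG, which reads the same on both strands). The upstream window is chr12:26195086-26195385 and the downstream one is chr12:26195323-26195622, so that they share 63 bases.
SSPN upstream window: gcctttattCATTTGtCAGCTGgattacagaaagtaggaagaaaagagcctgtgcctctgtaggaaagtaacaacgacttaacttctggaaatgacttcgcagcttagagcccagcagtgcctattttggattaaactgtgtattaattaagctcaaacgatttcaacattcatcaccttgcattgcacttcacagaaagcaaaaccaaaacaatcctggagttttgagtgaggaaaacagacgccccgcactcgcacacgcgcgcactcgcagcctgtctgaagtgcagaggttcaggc
SSPN downstream window: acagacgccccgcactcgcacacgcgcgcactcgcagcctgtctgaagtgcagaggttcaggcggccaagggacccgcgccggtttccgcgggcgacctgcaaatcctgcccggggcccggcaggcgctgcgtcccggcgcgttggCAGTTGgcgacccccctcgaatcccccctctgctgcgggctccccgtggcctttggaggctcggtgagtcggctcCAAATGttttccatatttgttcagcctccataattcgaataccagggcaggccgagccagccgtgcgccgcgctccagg
The upstream window holds 10 CpG dinucleotides and 45.3% G and C, and the downstream window holds 33 and 68.0%. Over all 35116 windows of the table the medians were 14 CpG and 58.7%. Each SSPN window holds 2 E-boxes, CATTTG and CAGCTG at 241 and 234 bases before the upstream start, and CAGTTG and CAAATG at 104 and 29 bases before the downstream start. An E-box occurs in 68.7% of all windows. Neither SSPN window holds a GC box (GGGCGG on either strand), which 45.0% of all windows hold, nor a TATA box (TATAAA, 11.5%), an AP-1 site (TGANTCA, 7.71%), a TEAD site (GGAATG, 14.0%) or a CCAAT box (34.6%), each searched on both strands. Of the 7 DTNA windows in the table, 5 hold an E-box and 1 a GC box. The SGCB window has 2 GC boxes, the SNTB2 window 3, and neither has an E-box. Most of the 7 DMD windows hold an E-box and none a GC box. Each UTRN window holds 1 E-box, and the upstream one also 1 GC box. E-boxes thus occur in windows of members that differed and of members that did not. SNTB1 and SGCE have no window in the table. These matches describe letters in the windows and are no evidence of binding.

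Sarcospan, the multi-pass membrane protein of the sarcoglycan subcomplex, was lower in all of its 5 probe sets. The brightest read 7.09 on the knockdown array and 8.98 on the control array. This is a difference of -1.89, or 3.71-fold, which leaves 27.0% of the control signal. Counted from the lowest difference, SSPN ranked 9th of the 10439 genes past the floor. The next SSPN probe set read 6.99 on the knockdown array and 9.02 on the control array (-2.04), and the one after it read 6.31 and 8.11 (-1.80). Across these 3 probe sets, all past the floor, the mean was -1.91 ± 0.12 (the SD is between probe sets on the same arrays, not between replicates). The remaining pair, annotated to a transcript record that none of the first 3 carries, lay below the floor and differed less. One of them read 5.96 on the knockdown array against 6.89 on the control array (-0.93), and the other 5.35 against 6.06 (-0.71). Probe sets of 1 gene can share probes and are not independent readings. With all 5 averaged, the SSPN difference was -1.47.

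The sarcoglycans are the membrane partners of sarcospan. Of those among the members, SGCB and SGCE were measured and neither reached 1.5-fold in any probe set. Beta-sarcoglycan (SGCB), whose loss causes a limb-girdle muscular dystrophy, read 9.63 on the knockdown array and 9.39 on the control array in its brightest probe set (0.25). Its other probe sets went the other way, with 8.52 on the knockdown array against 8.80 on the control array (-0.28) and 8.42 against 8.60 (-0.18). The sign of SGCB therefore depends on the probe set, and their mean was -0.07. Epsilon-sarcoglycan (SGCE), a widely expressed relative whose loss causes myoclonus-dystonia, read 10.7 on the knockdown array and 10.9 on the control array (-0.17). Its 3 probe sets past the floor lay between -0.26 and -0.17, and all 3 carry a suffix that marks possible cross-hybridisation. The remaining SGCE probe set read 3.35 on the knockdown array and 3.12 on the control array, below the background mean on both.

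Dystrophin and utrophin, the large proteins that link the complex to actin, lay close to 0. DMD, the dystrophin gene, has 8 probe sets, of which 1 lay past the floor and read 7.79 on the knockdown array and 7.72 on the control array (0.07). The 8 differences ran from -0.22 to 0.22, with 6 above 0 and 2 below, and 2 probe sets were under the background mean on both arrays. The gene gives rise to full-length and short dystrophins from separate starts, and the files do not say which of them a probe set reads. UTRN, which encodes utrophin, the close relative that can stand in for dystrophin, read 8.89 on the knockdown array and 8.97 on the control array (-0.08). The suffix of this probe set marks possible cross-hybridisation. The other UTRN probe set read 6.72 and 6.92 (-0.20). Both genes thus stayed within 1.5-fold in every probe set, and after centring on the hybridisation controls DMD differed by -0.45 and UTRN by -0.59, where the median gene lies at -0.48.

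The syntrophins are PDZ-domain adapters that bring channels and signalling proteins to dystrophin and utrophin, and of the beta genes SNTB1 was lower on the knockdown array while SNTB2 lay near 0. SNTB1, beta-1-syntrophin, read 8.40 on the knockdown array and 9.24 on the control array (-0.84, 1.79-fold). The next 3 probe sets read 7.97 against 8.94 (-0.98), 7.25 against 8.20 (-0.95) and 6.75 against 7.58 (-0.83), the knockdown array first in each. All 4 probe sets past the floor were thus lower by at least 1.5-fold, with a mean of -0.90 ± 0.07 (SD over probe sets). The fifth, dim on both arrays, read 4.78 on the knockdown array and 5.05 on the control array (-0.27). SNTB1 ranked 280th from the lowest difference among the 10439 genes past the floor. SNTB2, beta-2-syntrophin, read 7.81 on the knockdown array and 7.89 on the control array (-0.08), and its 4 probe sets were split, with 2 below 0 and 2 above, from -0.25 to 0.37. The gap between the differences of the SNTB1 and SNTB2 brightest probe sets was -0.76; it was not tested.

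DTNA encodes alpha-dystrobrevin, a dystrophin-related protein that binds syntrophins. Its brightest probe set read 6.59 on the knockdown array and 7.38 on the control array (-0.80, 1.74-fold). That value rests on 1 probe set past the floor, whose suffix marks possible cross-hybridisation. A dimmer probe set designed on the same sequence record read 4.64 on the knockdown array and 5.40 on the control array (-0.75). Its knockdown reading lay below the background mean, so the size of this difference is not firm. The probe set next in brightness after the first went the other way, with 5.53 on the knockdown array and 5.05 on the control array (0.47). The other 7 lay below the background mean on both arrays, between -0.11 and 0.12. Without the probe sets marked for cross-hybridisation DTNA differed by 0.47, and with all 10 averaged by -0.10, so the direction of DTNA depends on which probe sets are read.

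**Figure D2:**
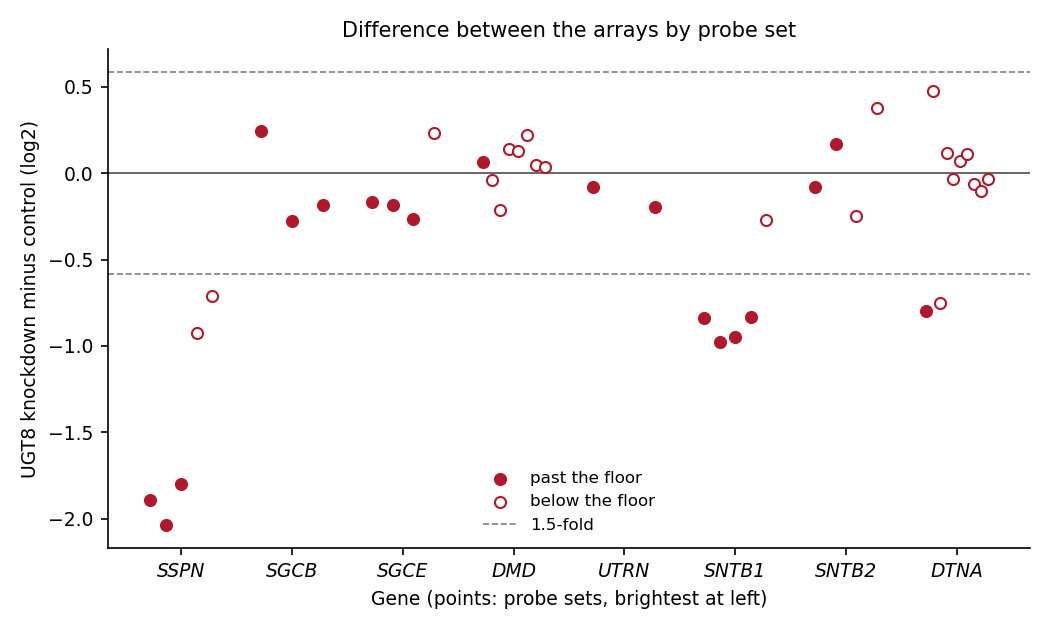
Difference between the UGT8 knockdown and the control array (log2, y axis) for each probe set of the 8 genes (x axis), with filled points past the floor, open points below it and dashed lines at 1.5-fold. SSPN, SNTB1 and UTRN have all points below 0, those of UTRN within 1.5-fold, and the points of SGCB, SGCE, DMD, SNTB2 and DTNA lie on both sides of it.

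Counted by probe set, 19 of the 41 lay past the floor, and 8 of these were lower by at least 1.5-fold and none higher, where 7.07% of all 22948 probe sets past the floor with 1 symbol were lower and 4.64% higher. The 8 were all those of SSPN, SNTB1 and DTNA past the floor. The 11 probe sets past the floor of the other 5 genes lay between -0.28 and 0.25. Probe sets of the same gene differed from each other by a median SD of 0.08 over the 6067 genes with at least 2 past the floor. Below the floor, 3 of 22 probe sets were lower by at least 1.5-fold, 2 of SSPN and 1 of DTNA. The share over all probe sets below the floor was not counted, so nothing is read from this number.

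Other proteins of the dystrophin complex and its partners were mostly near 0. Of 25 listed genes, 15 lay past the floor, with a median difference of 0.02 against 0.03 over all genes past the floor; 2 were lower by at least 1.5-fold and none higher, where 6.74% of all genes past the floor were lower and 4.96% higher. The count lower was 1 of 12 with all probe sets averaged, where 489 of all 8692 genes past the floor were lower. It was 0 of 9 after raising the floor to the 75th percentile, where 403 of 6031 were lower. After centring on the hybridisation controls it was 6 of 15, where 3868 of 10439 were lower. ITGA7, the alpha-7 integrin subunit of a laminin receptor that acts beside the dystrophin complex in muscle, read 6.51 on the knockdown array and 7.55 on the control array in its 1 probe set (-1.04, 2.06-fold). ITGB1, the beta-1 subunit with which it pairs, read 13.5 on both arrays, with a difference of 0.03. ANK2, which encodes an ankyrin that binds dystrophin, read 7.50 on the knockdown array and 8.26 on the control array (-0.76). Its other 4 probe sets lay below the floor, and with all of them averaged ANK2 differed by -0.33. SGCA, the alpha-sarcoglycan gene, differed by -0.04, and CAV1 (-0.15) and PLEC (0.02), a caveolin and the plectin linker, by little. DTNB, DRP2 and NOS1 lay below the floor, and NOS1 read 6.18 on both arrays.

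The list of laminin-type ligands, the matrix side of the complex, also holds laminin partner chains, BGN and SLIT2, so it is not made of ligands only. Its median was -0.53 over the 10 of 16 listed genes that lay past the floor. Of these 10, 8 were below 0, 3 were lower by at least 1.5-fold and none higher, where 6.74% of all genes past the floor were lower and 4.96% higher. The count lower was 1 of 6 with all probe sets of a gene averaged, where 489 of all 8692 genes past the floor were lower. It was 5 of 10 after loess or poly-A centring, where 766 and 896 of 10439 were lower. After centring on the hybridisation controls it was 8 of 10, where 3868 of 10439 were lower. LAMA5, the laminin alpha-5 chain, read 7.97 on the knockdown array and 9.01 on the control array (-1.03, 2.05-fold). Its other probe set lay under the background mean, and with both averaged LAMA5 differed by -0.43. AGRN, the heparan sulfate proteoglycan agrin, read 11.8 on the knockdown array and 12.4 on the control array (-0.67). The brightest AGRN probe set is marked for cross-hybridisation, and the other gave -0.32. LAMB2, the laminin beta-2 chain, read 8.67 on the knockdown array and 9.30 on the control array (-0.63) in its 1 probe set. The beta-1 and gamma-1 chains LAMB1 (-0.46, 1.38-fold) and LAMC1 (-0.58, 1.49-fold) did not reach 1.5-fold. LAMB3, a laminin chain of epithelial basement membranes, differed by 0.42. LAMA1, below the floor on mean level and named after its value was seen, read 6.96 on the knockdown array and 6.11 on the control array (0.85).

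The enzymes that build the laminin-binding glycans of dystroglycan showed no gene past 1.5-fold. Of 18 listed genes, 12 lay past the floor, with a median of 0.16, 7 above 0 and 5 below. POMT1, which with POMT2 starts the O-mannosyl chain, read 8.98 on the knockdown array and 8.70 on the control array (0.28), and POMT2 read 7.76 and 7.96 (-0.20). DOLK, the dolichol kinase of the donor supply, read 8.13 on the knockdown array and 7.57 on the control array (0.56), the difference nearest to 1.5-fold in this list. B4GAT1 (-0.15) and RXYLT1 (0.26), which add sugars ahead of the laminin-binding repeat, lay on either side of 0. After centring on the hybridisation controls this list had a median of -0.35, against -0.48 for all genes.

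**Figure D3:**
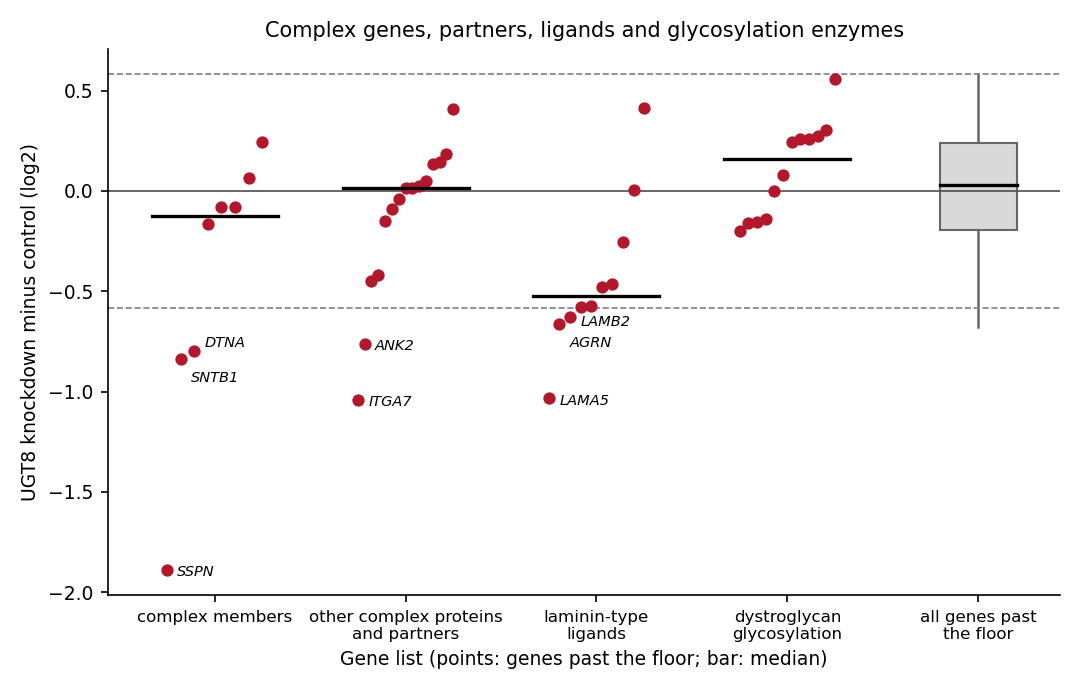
Differences (log2, y axis) of the genes past the floor in the complex and in each list (x axis), with the median as a bar; at the right a box gives the median and quartiles of all genes past the floor and its line the 5th to 95th percentile, from -0.68 to 0.58. Labelled genes are past 1.5-fold (dashed lines), and all of them lie below 0.

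Readings by other rules left SSPN and SNTB1 lower by at least 1.5-fold under every alternative that gave them a value, with SSPN between -2.40 and -1.47 and SNTB1 between -1.35 and -0.77. Changing the floor cannot alter a gene's value, and centring only shifts the same reading. DTNA was lower by that size under 6 of 8, all of this kind. The 2 that changed the probe sets read gave -0.10 and 0.47. SGCB ran from -0.27 to 0.25, SGCE from -0.68 to 0.23, DMD from -0.45 to 0.07 and SNTB2 from -0.59 to 0.05, so no direction is given for these genes. UTRN ran from -0.59 to -0.08. SGCE, SNTB2 and UTRN were each lower by at least 1.5-fold only after centring on the hybridisation controls.

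**Figure D4:**
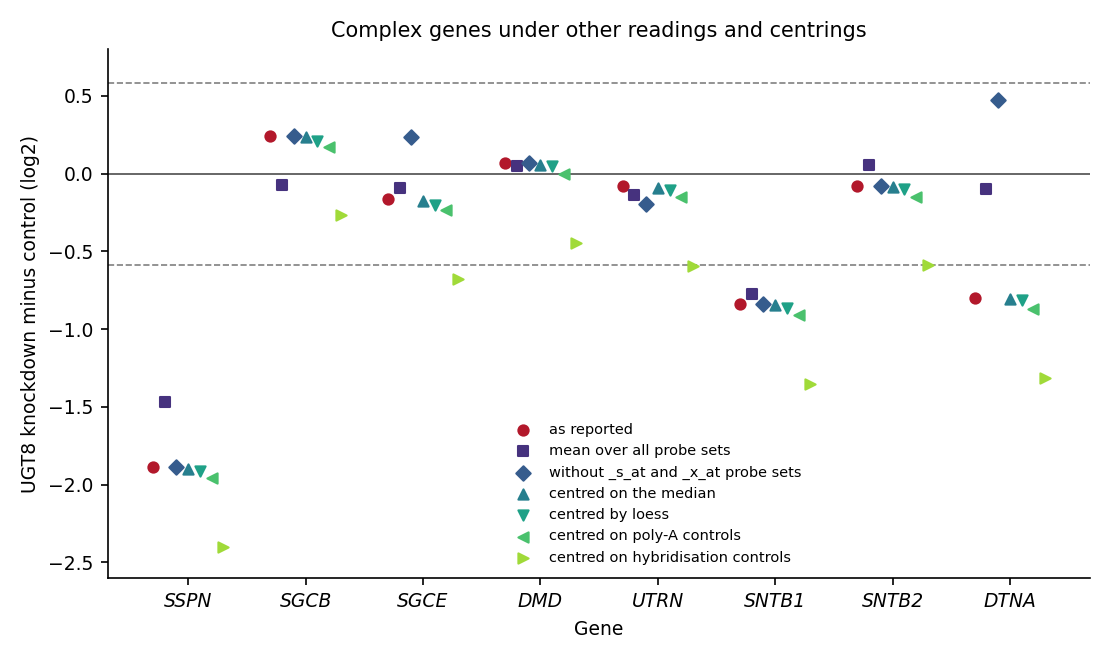
Difference (log2, y axis) of the 8 genes (x axis) as reported and under 2 other ways of reading probe sets and 4 centrings, with dashed lines at 1.5-fold. SSPN and SNTB1 stay below the lower line throughout, DTNA spans -1.31 to 0.47, and its value without marked probe sets, like the 0.23 of SGCE, comes from a probe set below the floor.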

How the data were processed

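Total RNA of UGT8 knockdown and control MDA-MB-231 cells was hybridised to 1 array each, grouped by the genotype label. The deposited values are on the log2 scale, made by the authors with RMA (background correction, normalization between arrays, probe-set summary), per the submitters' processing notes; no software, version or build is stated there. Sorted values of both arrays differed by at most 0.07, so differences are relative to the bulk of transcripts. Probe sets were named through the platform annotation, with symbols from RefSeq (GRCh38.p14), where 18192 of 18244 genes were found by gene ID; no build is stated for the array, so coordinates are given only for the RefSeq promoter windows. The table of 49495 probe sets held 102 controls, 45278 with 1 symbol, 1333 with several and 2782 with none in the annotation used. Background was the mean of 23 background probe sets, which ranged with base content from 2.76 to 11.2. Their median was 3.44 on the knockdown array and 3.46 on the control array. A reading below the mean is therefore not the same as an undetected gene.

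Members, lists and thresholds were chosen with earlier results of these data known. Named were all members, UGT8, up to 4 genes per list with the largest difference of at least 1.5-fold, the 3 genes nearest to SSPN, and other list genes chosen after their values were seen to complete counts or show both directions. No statistical test was run, since each group holds 1 array. The counting of genes past the fold was tested on simulated data with differences far past the fold and little noise. This checks the counting step only and says nothing of calls near 1.5-fold. Alternatives changed the probe set rule, floor, fold or centring (loess fraction 0.3). Python 3.11.15, pandas 2.3.3 and statsmodels 0.14.6 were used.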

Additional observations from a re-analysis of the deposited data

How the results depend on the processing

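All differences rest on 1 pair of arrays, so no setting stands in for a replicate, and readings near the background mean have no firm size. No paired analysis was possible because each group held 1 array. Among the alternatives, centring on the hybridisation controls moved most values, and took UGT8 to -2.85. The median was -1.04 for the laminin-type ligand list, -0.50 for the other complex proteins and partners and -0.35 for the glycosylation enzymes. Members lower by 1.5-fold came to 6, and all genes gave 3868 lower and 50 higher. All differences drop there by the same amount, by construction. A floor raised to the 75th percentile keeps 4 members, and there 1 was lower (SNTB1), all genes gave 403 lower and 243 higher, and the glycosylation median was -0.0017. Lowering the floor to the 25th percentile gave 0.040 for it, and dropping the floor 0.040. Without probe sets marked for cross-hybridisation, DTNA turned to 0.47 and the partners' median was -0.078. With all probe sets of a gene averaged, UGT8 differed by -2.10. At 2-fold, 1 member was lower (SSPN), with 161 genes lower and 77 higher; at 3-fold, 1 member (SSPN), with 29 lower and 7 higher. Of the other values recomputed for single genes and list counts, 191 moved by less than 0.08 or 1.5 times and 48 by more. The 191 include values that a setting could not change, such as single-gene differences under another floor, so they are no measure of stability. The cause of these moves was not tested.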

Other observations

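The genes whose brightest probe set lay nearest to that of SSPN in the plane of the 2 arrays' values were CRTAM, IFFO2 and SERPINA3. With 2 arrays, nearness covers only 1 level and 1 difference, and the distance is in log2 units. CRTAM, which encodes a membrane protein of the immunoglobulin superfamily, lay at a distance of 0.18 and read 7.05 on the knockdown array and 8.80 on the control array (-1.76). IFFO2, an intermediate filament family gene, lay at 0.41 and differed by -1.34. SERPINA3, the serine protease inhibitor antichymotrypsin, lay at 0.43 and differed by -1.29, and its other probe set by -1.93.

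Myelin and Schwann cell markers were listed because galactosylceramide, the product of the UGT8 enzyme, is a lipid of myelin and because the complex also works in Schwann cells. Of 8 listed genes, 5 had a probe set and 2 lay past the floor. MBP, whose gene encodes myelin basic protein and also gives rise to the transcripts of the Golli proteins, read 9.93 on the knockdown array and 10.5 on the control array (-0.59, 1.51-fold). Its next probe set read 8.72 on the knockdown array and 9.39 on the control array (-0.67). All 7 MBP probe sets were below 0, from -0.70 to -0.01, but only 2 of them lay past the floor. ERBB3, the other listed gene past the floor, differed by -0.09. S100B (0.17) and NGFR (-0.07) lay below the floor. The Schwann cell regulator SOX10 lay below the floor, at 6.33 on the knockdown array and 6.26 on the control array.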
